A study of Glycine max with 13 samples.

Results

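Sites restricted to clade A are places in the soybean genome where the deposited peak lists of at least 4 of 6 clade A auxin response factors (ARFs) of maize have a binding event and where no list of a clade B ARF has one. There were 2851 of them among 71895 sites, which is 3.97% of all sites. They were chosen by the presence and absence of events, so their ARF make-up and their lack of clade B events are descriptions without a test. The events come from DAP-seq: fragments of naked genomic DNA, here from soybean leaf, are offered to a HALO-tagged protein, and those that it holds are sequenced. Each of the 12 ARFs, 6 of clade A (ARF34, ARF29, ARF27, ARF18, ARF16, ARF4) and 6 of clade B (ARF39, ARF36, ARF25, ARF14, ARF10, ARF7), had 1 library and 1 list, and a library of the tag alone (GST-HALO) was not analysed here. The clades are taken from the published maize phylogeny as background, since the labels do not give them. The maize proteins met DNA of another species without chromatin, so the sites describe binding to sequence outside the cell.

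ARFs bind short DNA elements whose core is TGTC, and pairs of such elements in a fixed arrangement can hold a dimer. Clade A ARFs are generally described as activators that the hormone auxin frees from Aux/IAA repressor proteins, and clade B ARFs as repressors. No genome sequence of a stated build was used here, so no site is given with its sequence or its genes.

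Events of all lists were chained into a site when neighbouring event positions on a chromosome lay within 100 bp. Sites with at least 4 clade A ARFs and at least 1 clade B ARF, called mixed sites here, served as the comparison, and numbered 3179. Restricted sites made up 47.3% of the 6030 sites where 4 or more clade A ARFs met. With 1 ARF left out and 4 still required, leaving out ARF34 gave 1019 sites, leaving out ARF16 1079, leaving out ARF27 1314 and leaving out ARF4 1130. Lists ran from 1106 events (ARF18) to 35715 (ARF34) and depth is unknown, so "no event" means no event in that list and not absence of binding.

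A core of 3 proteins ran through nearly all restricted sites. ARF34, ARF16 and ARF4 were together at 2618 sites, or 91.8%, and ARF34 with ARF16 at 2758, or 96.7%. Every restricted site had ARF34 or ARF16: 18 lacked ARF34, 75 lacked ARF16 and 0 lacked both. These 3 proteins have the longest clade A lists. Over all sites, ARF34 had an event at 47.9%, ARF4 at 26.6%, ARF16 at 22.4%, ARF27 at 14.0%, ARF29 at 7.41% and ARF18 at 1.50%, and at restricted sites the shares were 99.4%, 95.1%, 97.4%, 88.6%, 47.4% and 12.5%. Mixed sites had 98.1%, 97.4%, 95.5%, 92.8%, 67.8% and 21.1% in the same order, so the core was not particular to restricted sites. The rule asks for at least 4 clade A ARFs and by itself raises these shares above those over all sites, so the differences are not read as findings.

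Of the 22 combinations of 4, 5 or 6 clade A ARFs, 14 occurred, and 3 of them made up 81.5% of the restricted sites. ARF4, ARF16, ARF27 and ARF34 without ARF18 and ARF29 were the most frequent, at 1312 sites (46.0%, Wilson 95% interval 44.2% to 47.9%). The same 4 proteins with ARF29 followed at 717 sites (25.1%), and ARF4, ARF16, ARF29 and ARF34 at 294 sites (10.3%). All 6 proteins met at 150 sites (5.26%). Exactly 4 ARFs were present at 1851 sites (64.9%) and 5 at 850 (29.8%). Mixed sites carried more clade A proteins, with 44.4% of them at exactly 4 and 17.2% at all 6.

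**Figure D1:**
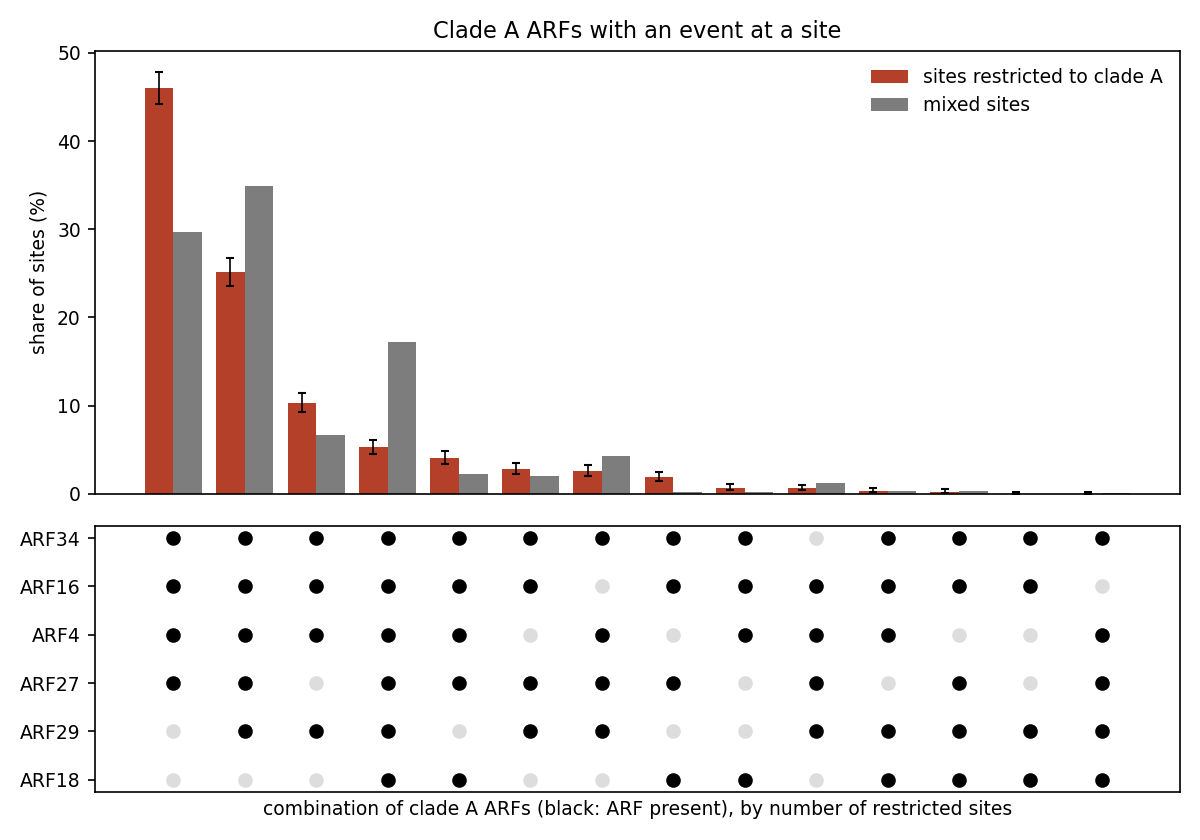
Share of restricted sites (red, with Wilson 95% intervals) and of mixed sites (grey) with each combination of clade A ARFs; black dots below mark the ARFs present. The leading combination, without ARF29 and ARF18, holds 46.0% of restricted and 29.7% of mixed sites, whereas all 6 ARFs are at 5.26% and 17.2%.

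The share of sites without a clade B event differed between combinations. ARF16, ARF18, ARF27 and ARF34 without ARF4 and ARF29 were found at 59 sites with at least 4 clade A ARFs, if 53 restricted and 6 mixed sites are counted, and 89.8% of these were restricted. ARF4, ARF16, ARF18 and ARF34 alone were restricted in 80% (20 restricted, 5 mixed). In contrast, only 31.6% of sites with ARF4, ARF16, ARF27 and ARF29 but no ARF34 were restricted (18 against 39), and 35.2% of sites with ARF4, ARF27, ARF29 and ARF34 (74 against 136). The share fell with the number of clade A proteins as a description: 56.7% of sites with exactly 4, 41.1% with 5 and 21.5% with 6. These differences were not tested, because sites are not replicates.

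Values just inside and just outside the threshold are given as a description. The mean percentile is taken over the ARFs present, and these differ between the sets. Without a clade B ARF, ARF27 was at 40.9% of sites with 3 clade A ARFs and at 83.0% of those with exactly 4. The medians are thus not a measure of strength alone. Exactly 4 clade A ARFs and no clade B ARF (1851 sites) gave a median mean percentile of strength of 55.8, with quartiles of 40.7 and 71.1. Sites with 3 clade A ARFs and no clade B ARF (3615) had a median of 51.2 (33.3 to 67.9), and 96.4% of them had ARF34. Sites with exactly 4 clade A and 1 clade B ARF (362) had a median of 61.8 (44.4 to 76.9). Among all 664 sites with at least 4 clade A ARFs and a single clade B ARF, that protein was ARF10 at 254 (38.3%), ARF25 at 208 (31.3%), ARF36 at 114 and ARF7 at 74, and ARF14 and ARF39 at 8 and 6. Over all sites, ARF10 had an event at 16.8%, ARF25 at 25.8%, ARF36 at 30.6%, ARF7 at 28.3%, ARF14 at 12.9% and ARF39 at 5.73%. The median strength percentile of these clade B events lay between 16.1 (ARF39) and 33.0 (ARF10), in the lower part of their lists.

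Event strength was taken from the deposited lists, whose scaling is not stated, and is given as a percentile within the list of the ARF, at 0 for the weakest and 100 for the strongest events. At restricted sites the median percentile of the strongest event was 79.4 for ARF34 (quartiles 59.1 and 91.7), 65.0 for ARF4 (40.2 and 84.4), 64.4 for ARF16 (36.0 and 85.3), 52.7 for ARF27 (30.3 and 72.9), 49.6 for ARF29 (25.8 and 70.6) and 43.1 for ARF18 (21.6 and 64.4). The order is that of the length of the lists. A percentile is a rank within a list, and the lists differ in length, so percentiles of different ARFs are not comparable in size.

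The single strongest event of each list lay outside the restricted sites. The highest strength at a restricted site was 382.2 for ARF34, where the list reached 7744.6, and 109.9 for ARF29, where it reached 7391.2. The same held for ARF4 (234.9 of 6652), ARF27 (394 of 5563.6), ARF16 (469.5 of 2879.9) and ARF18 (101 of 786). For each of the 6 lists, mixed sites held the strongest event of the list.

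Events of clade A were lower in rank at restricted sites than at mixed sites in 6 of 6 proteins. The median percentile at mixed sites was 81.9 for ARF4, 75.3 for ARF16, 55.3 for ARF18, 72.9 for ARF27, 67.4 for ARF29 and 84.3 for ARF34. The difference, restricted minus mixed, lay between -4.83 (ARF34) and -20.1 (ARF27). It averaged -13.8 ± 5.6 (SD, n = 6 ARFs), from 72.8 ± 10.5 at mixed to 59.0 ± 13.1 at restricted sites. A two-sided exact sign-flip permutation test over the 6 ARFs gave p = 0.031, the smallest value 6 ARFs allow. After Benjamini-Hochberg adjustment over 6 tests this exact permutation p was 0.0938, which did not pass 0.05. At this floor the sign-flip tests alone could not pass after that adjustment, so the outcome cannot decide on a difference. The ARFs share sites, and each rests on 1 library. Against mixed sites with exactly 1 clade B ARF the mean difference was -5.78 (exact permutation p = 0.156). ARF18 went the other way there, with a median of 43.1 at restricted and 35.4 at these mixed sites.

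**Figure D2:**
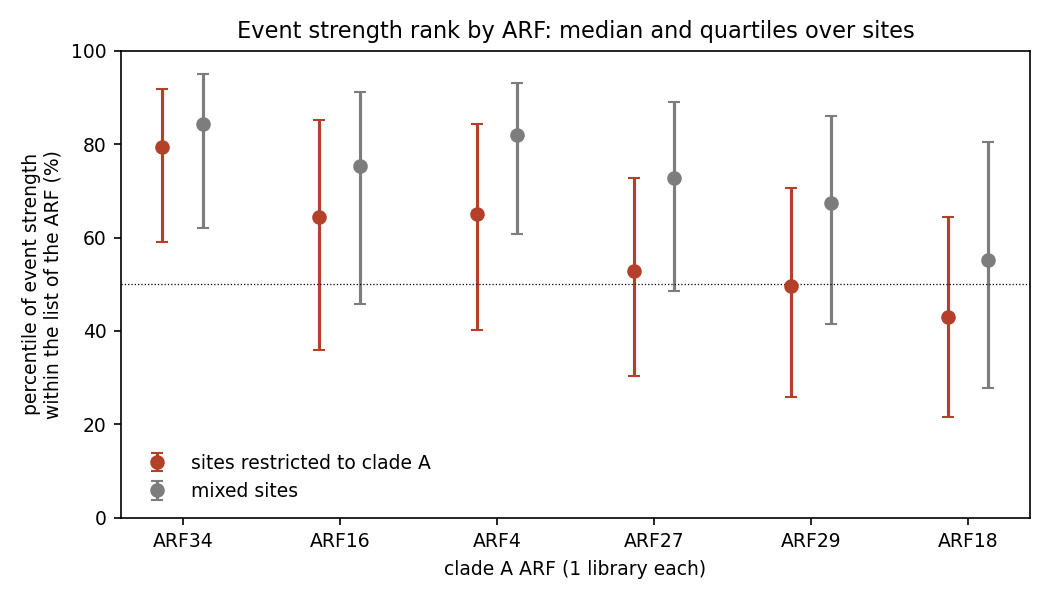
Median (point) and quartiles (bars) over sites of the strength percentile of the strongest event of each clade A ARF, at restricted (red) and mixed sites (grey); the dotted line is the middle of a list. All 6 medians are lower at restricted sites, with differences from -4.83 (ARF34) to -20.1 (ARF27) percentile points.

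The difference depended on the protein when sites with the same number of clade A ARFs were compared. At sites with exactly 4, the median percentile of ARF34 was 74.6 at restricted and 75.3 at mixed sites, and that of ARF16 was 56.7 and 59.5. ARF4 and ARF27 differed more, with 59.2 against 71.2 and 44.8 against 60.1. At sites with exactly 5, ARF34 was slightly higher at restricted sites, with 83.7 against 83.3, and ARF16 had 73.1 against 74.3. ARF4 had 72.1 against 83.8 there and ARF27 57.8 against 72.9. At sites with all 6, ARF34 had 96.6 against 97.3 and ARF16 94.6 against 96.2, while ARF29 had 70.9 against 87.9 and ARF18 43.1 against 56.3. The test over the 6 ARFs at sites with exactly 4 gave a mean difference of -10.8 (exact permutation p = 0.031, adjusted 0.143). ARF18, with only 17 mixed sites of this kind, had the difference farthest from 0, at -28.6, and the other 5 lay between -15.3 and -0.65.

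The rank of clade A events was also read by the number of clade B ARFs at sites with at least 4 clade A ARFs. The mean over the 6 proteins of the median percentile was 59.0 with 0 clade B ARFs, 64.8 with 1, 69.2 with 2, 68.9 with 3, 73.7 with 4, 73.2 with 5 and 81.1 with 6. ARF27 ran from 52.7 to 83.8 and ARF29 from 49.6 to 80.5, whereas ARF34 stayed between 78.9 and 86.9. Library depth is unknown and its part in this gradient was not tested.

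Seen from the lists, restricted sites took up 8.85% of the ARF34 events, 14.5% of ARF4, 18.0% of ARF16, 25.2% of ARF27, 25.1% of ARF29 and 32.5% of ARF18. Among the strongest decile of each list the share was 23.9% for ARF34, 29.8% for ARF16, 22.1% for ARF4, 17.9% for ARF27, 10.2% for ARF29 and 7.21% for ARF18. In the weakest decile it was 2.07%, 10.7%, 6.79%, 19.0%, 21.1% and 45.0% in the same order. The 3 long lists thus had their largest share of restricted sites in the strongest decile, and the 3 short lists had theirs in the middle or, for ARF18, in the weakest decile. In the strongest decile of ARF18, 85.6% of the events were at mixed sites.

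**Figure D3:**
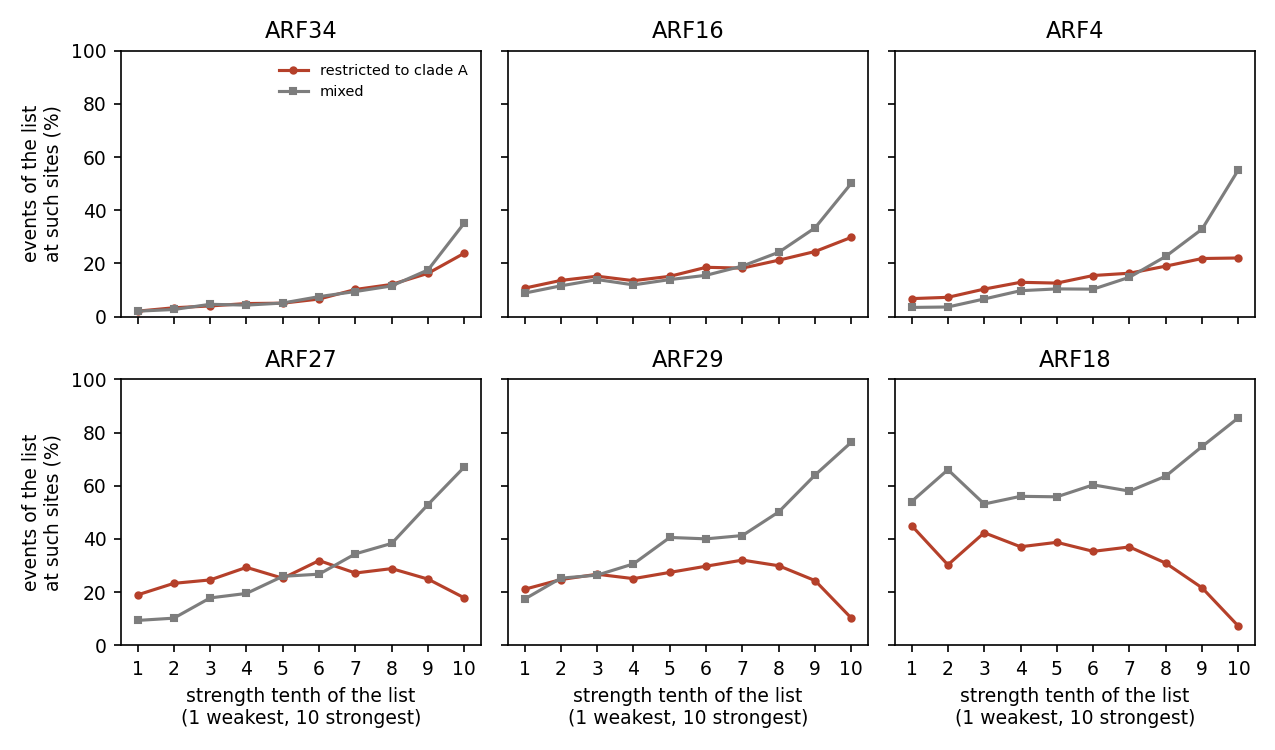
Share of the events of each clade A list that lie at restricted (red) and mixed sites (grey), by decile of strength within the list (1 weakest, 10 strongest). For ARF34 both shares rise to 23.9% and 35.2% in the strongest decile, and for ARF18 the restricted share is 45.0% in the weakest and 7.21% in the strongest decile.

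How far the proteins ranked the restricted sites alike differed between pairs. All ARFs present were at or above the 75th percentile at 157 restricted sites (5.51%) and at 497 mixed sites (15.6%), and all were below 50 at 223 (7.82%) and 123 (3.87%). Across sites, Spearman's rho between the percentiles of 2 proteins was highest for ARF16 and ARF34 (0.77, 2758 sites), followed by ARF16 and ARF18 (0.63, 356 sites) and ARF16 and ARF27 (0.59, 2451 sites). It was lowest for ARF4 and ARF18 (0.18, 296 sites) and was 0.33 for ARF4 and ARF34 (2693 sites). These are correlations across sites, which are not independent, and the sites share the libraries. In 13 of 15 pairs rho was higher at mixed sites, where its median over pairs was 0.56 against 0.44 at restricted sites.

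Most restricted sites held a single event of each ARF. That was so for 2363 sites (82.9%), whose events spanned a median of 25 bp (quartiles 11 and 47). The other 488 sites (17.1%) had at least 2 events of an ARF and spanned a median of 97 bp. At 312 of them a single ARF had several events, at 176 at least 2 ARFs had, and at 16 at least 4 ARFs had. ARF34 had several events at 313 of its 2833 restricted sites (11.0%), ARF16 at 269 of 2776 (9.69%), ARF4 at 98 of 2711 (3.61%), ARF27 at 57 of 2526 (2.26%), ARF18 at 3 of 357 (0.84%) and ARF29 at 4 of 1351 (0.30%). Both ARF16 and ARF34 had several events at 129 sites.

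Sites with several events of a clade A ARF were less frequent among restricted than among mixed sites in 6 of 6 proteins. The mean share was 4.6% ± 4.6 (SD, n = 6) at restricted and 7.2% ± 4.6 (SD, n = 6) at mixed sites, and the difference was -2.55 ± 0.14 percentage points, between -2.75 (ARF4) and -2.39 (ARF16). The two-sided exact sign-flip permutation test gave p = 0.031, adjusted 0.0938, so it did not pass 0.05. The floor of 6 ARFs holds here too, so this outcome cannot decide on a difference either. Mixed sites also spanned more bases, with a median of 55 bp against 32 bp, and chaining events of more lists makes a longer site. With sites of exactly 4 clade A ARFs the difference was -0.79 percentage points (exact permutation p = 0.0625), and without ARF10 it was -1.23. At sites with exactly 5 clade A ARFs the order was the other way for ARF16, with 13.3% at restricted and 11.4% at mixed sites, and for ARF34, with 14.7% and 13.6%. By number of clade B ARFs the mean share did not rise steadily. It was 4.62% with 0, 7.68% with 1, 9.88% with 2 and 4.78% with 3. With 4, 5 and 6 clade B ARFs it was 5.81%, 6.38% and 6.97%.

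The strongest events of the clade A proteins lay close together at restricted sites. The median offset of an event from the middle of the other clade A events was 6 bp for ARF4, ARF16, ARF18 and ARF27, 7 bp for ARF34 and 10 bp for ARF29. Between 2 proteins, ARF18 and ARF29 were closest, with a median of 4 bp over 169 sites, and ARF29 and ARF34 farthest, with 16 bp over 1333 sites. At mixed sites the offset was 8 bp for ARF4, 6 bp for ARF16 and ARF27, 4 bp for ARF18 and 8.5 bp for ARF29 and ARF34. The mean difference was 0 ± 1.6 bp (SD, n = 6), lower in 2 proteins and higher in 2 (exact permutation p = 1).

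Clade B-restricted sites, defined in the mirror way (4173 sites), were compared with them in 3 measures by two-sided exact permutation tests over the 924 splits of 12 ARFs into 6 and 6, and none passed 0.05. The median percentile averaged 59.0 ± 13.1 in clade A and 60.9 ± 10.7 in clade B (SD, n = 6 each, exact permutation p = 0.786, adjusted 0.943). Leaving out any 1 clade A protein turned the direction, up to a difference of 3.63, and leaving out any 1 clade B protein gave -5.92 to -4.81. With 4 ARFs still required, each omission made the rule stricter for 1 clade only, so these values do not show the effect of single proteins. Sites with several events of an ARF averaged 4.6% ± 4.6 and 2.8% ± 1.5 (exact permutation p = 0.39, adjusted 0.584), and with events merged within 50 bp the difference of 1.87 percentage points turned to -0.083. The offset averaged 6.8 ± 1.6 bp and 8.8 ± 2.0 bp (exact permutation p = 0.121, adjusted 0.242), and with events merged within 50 bp its difference of -3.21 bp passed the threshold (exact permutation p = 0.0043, adjusted 0.026). In clade B the own-clade events were likewise lower in rank at restricted than at mixed sites in 6 of 6 proteins, with a mean difference of -9.67 ± 4.1 (SD, n = 6). The difference between the clades, -4.14, did not pass (exact permutation p = 0.171, adjusted over 3 added tests 0.513).

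Where an ARF had several events at a restricted site, their spacing was not even. Of the 787 gaps between neighbouring events of an ARF within a restricted site, the most frequent single values were 128 bp (57 gaps), 130 bp (43), 64 bp (42), 129 bp (36) and 131 bp (35). Windows at 61 to 68, 125 to 133, 190 to 197 and 254 to 262 bp were then set after these values had been seen, so no test is given. The windows cover 9.69% of the bases between 50 and 400 bp and held 424 of the 705 restricted-site gaps in that range, or 60.1% (Wilson 95% interval 56.5% to 63.7%), with 166, 213, 37 and 8 gaps in turn. Gaps within a site crowd at short distances, with an upper quartile of 129 bp among the 787. The 9.69% is thus not the share expected without a preferred spacing, and the other sets of sites are the nearer comparison. They held 37.2% (34% to 40%) of the gaps of clade A events at mixed sites and 17.3% (14.2% to 20.9%) of the gaps at clade B-restricted sites, where 67 of the 85 gaps in windows were in the first. Several ARFs can show the gap of the same site, and the 424 gaps lay at 243 sites.

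**Figure D4:**
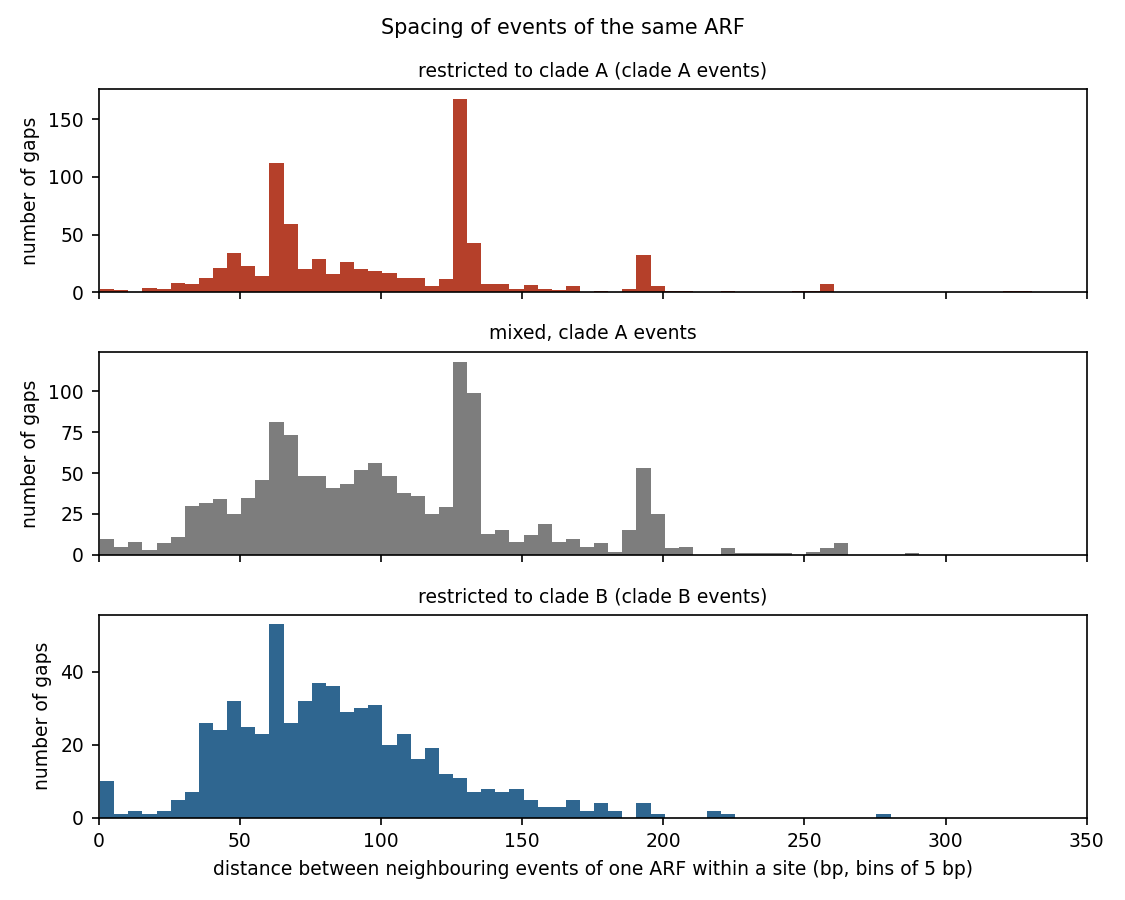
Number of gaps, in bins of 5 bp, between neighbouring events of the same ARF within a site, for clade A events at restricted (red) and mixed sites (grey) and clade B events at clade B-restricted sites (blue). Clade A gaps are most frequent at 61 to 68 and 125 to 133 bp; these and the windows at 190 to 197 and 254 to 262 bp hold 60.1% of the restricted-site gaps of 50 to 400 bp.

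The same spacing was present in whole clade A lists, without any merging into sites. The windows held 44.1% of the gaps of 50 to 400 bp in the ARF4 list, 41.9% in ARF16, 35.9% in ARF34, 35.2% in ARF27, 31.4% in ARF18 (11 of 35 gaps) and 20.6% in ARF29. In the clade B lists they held 11.2% (ARF36) to 17.7% (ARF39, 17 of 96 gaps). The means were 34.9% ± 8.4 in clade A and 14.1% ± 2.6 in clade B (SD, n = 6 each). Each clade A share was above each clade B share, but some Wilson 95% intervals overlapped. That of ARF29 (14.7% to 28.0%) overlapped those of ARF39 (11.4% to 26.5%), ARF14 (12.8% to 21.1%), ARF10 (10.7% to 17.3%) and ARF7 (12.2% to 16.9%). The interval of ARF18 (18.6% to 48.0%) overlapped those of ARF39 and ARF14. The windows were set on clade A gaps that belong to these same lists.

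Restricted sites also stood in groups. With midpoints within 500 bp of each other, 161 restricted sites (5.65%, Wilson 95% interval 4.86% to 6.56%) fell into 76 groups on all 20 chromosomes, 68 of them pairs and 8 of 3 or more. Among mixed sites the share was 2.99% (2.45% to 3.64%) and among clade B-restricted sites 1.10% (0.83% to 1.47%). Members of a group are counted together, so these intervals are too narrow. The largest group had 4 restricted sites at 28920853 to 28921901 of chromosome 4, with 20 clade A and 0 clade B events in 1049 bp. A group of 3 at 13710983 to 13711807 of chromosome 9 had 23 clade A events, and 1 at 16016586 to 16017548 of chromosome 10 had 17, again without a clade B event. In all, 74 of the 76 groups had no clade B event between their first and last position. The groups had a median length of 389 bp, and the rule bars clade B events within 100 bp of a member's events. The lack of clade B events in groups is thus largely set by the rule and is not read as a finding. Grouped sites had ARF16 and ARF34 at 100%, ARF4 at 99.4%, ARF27 at 94.4%, ARF29 at 25.5% and ARF18 at 8.70%, against 48.7% for ARF29 and 12.8% for ARF18 at the other 2690.

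Restricted sites were found on all 20 chromosomes. Counts ran from 109 on chromosome 11 to 179 on chromosome 4, with a median of 145. Per megabase of the span covered by events the density was lowest on chromosome 15 (2.55) and highest on chromosome 4 (3.50). Restricted sites were 3.51% of all sites on chromosome 17 (Wilson 95% interval 2.92% to 4.21%) and 4.54% on chromosome 4 (3.93% to 5.23%), and the intervals overlapped. As a share of sites with at least 4 clade A ARFs they were 39.3% on chromosome 17 (33.8% to 45.1%) and 53.5% on chromosome 20 (47.2% to 59.6%).

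Along the chromosomes, restricted sites followed the profile of all sites. The middle of the span, from 25% to 75%, held 46.4% of them (Wilson 95% interval 44.6% to 48.2%), 47.5% of all sites and 37.3% of mixed sites (35.7% to 39.0%). The outer 10% at both ends held 23.5% of restricted sites, 22.5% of all sites and 29.4% of mixed sites. Spacing and grouping went with position. The middle held 73.3% (67.4% to 78.4%) of the 243 restricted sites with a gap in the windows and 87.6% (81.6% to 91.8%) of the 161 grouped sites. Grouped sites share their position with their neighbours and stand at only 76 places, so their interval is too narrow. It held 44.1% of the 245 restricted sites with several events but no such gap. Of the 2363 with 1 event per ARF it held 43.9% (41.9% to 45.9%). Of the 2690 without another restricted site within 500 bp it held 43.9% (42.1% to 45.8%). Both of these intervals lie below the 47.5% of all sites, so the nearness of the total rests on the grouped sites. Sites are not replicates, and these differences were not tested.

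**Figure D5:**
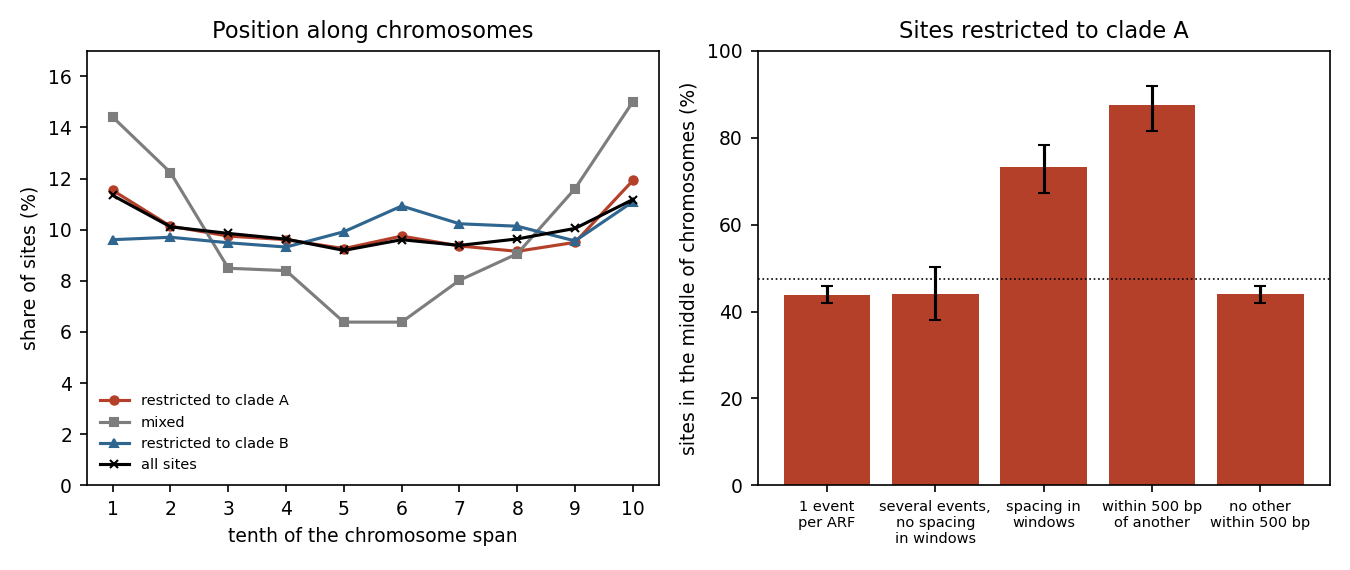
Left, share of sites in 10 equal parts of the span covered by events, for restricted (red), mixed (grey), clade B-restricted (blue) and all sites (black). Right, share of restricted sites in the middle of chromosomes with Wilson 95% intervals, by event spacing and grouping, with all sites as a dotted line at 47.5%. Grouped sites reach 87.6%, with an interval that is too narrow because members of a group share their position.

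The nearest clade B event lay a median of 7299 bp away (quartiles 2715 and 15746), and the rule sets a lower limit of 100 bp. It lay within 200 bp at 114 restricted sites (4.0%), within 500 bp at 282 (9.89%, Wilson 95% interval 8.85% to 11.0%) and beyond 50000 bp at 76 (2.67%). When each list kept its upper part by −log10 q, the median distance was 12868 bp, and with lists cut to the length of the ARF18 list 111417 bp. Clade A sites of fewer ARFs without a clade B event were a little farther, with medians of 7920 bp at 3 ARFs and 8131.5 bp at 1 ARF. They also had a smaller share within 500 bp, 7.66% at 3 ARFs (6.84% to 8.58%) and 6.41% at 1 ARF (6.07% to 6.76%). By protein, the share of restricted sites with an event within 500 bp was 5.09% for ARF10, 4.77% for ARF25, 4.10% for ARF7, 3.54% for ARF36, 2.07% for ARF14 and 0.67% for ARF39. ARF10 led although its list of 12286 events is shorter than those of ARF36 (22516), ARF7 (20802) and ARF25 (19058).

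Restricted sites close to a clade B event had the higher mean percentile of the ARFs present, as a description. At restricted sites the median of this mean was 55.8 with 4 ARFs, 63.8 with 5 and 77.3 with 6. Sites within 500 bp carried 4.49 clade A ARFs on average and the farther ones 4.39 to 4.45. The part of this in the values below was not tested. The mean percentile had a median of 67.1 at the 282 sites within 500 bp, 63.1 at 501 to 1000 bp, 59.7 up to 10000 bp, 57.8 up to 50000 bp and 56.3 beyond. At 141 of the 282 sites the nearby events were of 1 clade B ARF and at 43 of at least 4. The middle of chromosomes held 58.2% of the 282 sites. The nearby clade B events had a median percentile of 48.2 in their own lists (quartiles 22.3 and 74.1).

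Named sites were taken by a fixed rule, and their positions are on the chromosomes of the files, whose build the sources used here do not state. The site with all 6 ARFs and the highest mean percentile lay at 36174805 to 36174841 of chromosome 1, 7198 bp from a clade B event. Its strengths were 85 for ARF4, 305.8 for ARF16 (2 events), 101 for ARF18, 112 for ARF27, 70 for ARF29 and 286.9 for ARF34, all at or above the 94th percentile of their lists. The other 4 sites of this kind were on chromosomes 5, 1, 20 and 5 and had strengths from 46 (ARF29) to 368 (ARF16), both on chromosome 20.

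The leading site of the most frequent combination averaged 97.9 ± 1.4 in percentile (SD, 4 proteins) and lay at 9199876 to 9199937 of chromosome 5. ARF4 had a strength of 118.1 there, ARF16 164.4, ARF27 89 and ARF34 211.7, and ARF10 had an event 496 bp away. The leading site with ARF29 in addition was at 39418586 to 39418613 of chromosome 17 (mean percentile 95.3), and that without ARF27 at 5471271 to 5471288 of chromosome 14 (93.4), 241 bp from an ARF25 event. The leading site without ARF29 but with ARF18 lay at 50029336 to 50029359 of chromosome 9 (94.5), 841 bp from an ARF25 event.

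The sites with the most events held 13, 13 and 12. At 30523264 to 30523640 of chromosome 1, ARF16, ARF27 and ARF34 had 3 events each and ARF4 and ARF29 had 2, with a mean percentile of 88.9. At 30488498 to 30488879 of chromosome 4, ARF4 had 4 events, and the mean percentile was 60.9. The third, at 35000342 to 35000734 of chromosome 18, lay 475 bp from an ARF10 event.

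The sites nearest to and farthest from a clade B event are given with the rank of each event in its own list. At 101 bp from an ARF7 event, the site at 42111390 to 42111399 of chromosome 5 had percentiles from 78.2 (ARF18) to 98.3 (ARF16). At 101 bp from ARF10 events, the site at 31606543 to 31606546 of chromosome 10 had ARF4 at 96.2 and ARF27 at 11.6, and that at 721243 to 721285 of chromosome 1 had ARF4 at 84.7 and ARF16 at 4.54. The 3 most remote sites were 111757 bp (chromosome 9, 45087875 to 45087889), 98762 bp (chromosome 2, 35410341 to 35410426) and 96655 bp (chromosome 18, 7485493 to 7485580) from a clade B event, with mean percentiles of 49.7, 62.7 and 62.4.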

How the data were processed

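Each ARF library has 1 deposited list of events. The submitters' processing notes name Bowtie2 and Trimmomatic 0.36, and the list titles name the event caller GEM. For build, filters and caller settings: not given in the sources used here. The deposited signal value was used as strength, and ranked within its list. Deposited significance is on a −log10 scale, reaching at most 999, and −log10 q served in 1 alternative. Depth per library is unknown, and intervals cover counting error only.

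Event positions were written 1-based. Sites, restricted and mixed classes and named sites followed the rules given in the report. The named sites were the 5 strongest with all 6 ARFs, the leading site of the 5 most frequent combinations (1 of them the same site), the 3 with the most events, and the 3 nearest to and 3 farthest from a clade B event. The absence of an event can lie with the length of a list, and genes and sequences at the sites were not analysed here. Members, comparisons and lists were chosen with earlier results of these data known. Tests were two-sided exact sign-flip tests over 6 ARFs (64 flips) and exact permutation tests over 924 splits, adjusted with the Benjamini-Hochberg method over 6 tests. The comparison of both clades' contrasts, the spacing windows and the groups were added after seeing values. The code was tested on simulated data. Software: matplotlib 3.10.9, scipy 1.17.1, pandas 2.3.3, numpy 2.4.6, under Python 3.11.15.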

Additional observations from a re-analysis of the deposited data

Results flagged for a closer look

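Among the 6 clade A proteins, over 7 measures per protein, 1 value stood apart from the rest: the median offset of ARF29 events from the other clade A events at restricted sites was 10 bp, against 6 or 7 bp for the other 5. The gap to the next value was 0.75 of the whole range. Chance alone flags about 1 in 20 groups of independent values with a normal spread, and 7 measures were examined. These offsets are tied medians from proteins that share sites, so the rate that holds here is not known.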

How the results depend on the processing

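No test passed the adjusted threshold of 0.05 in the main analysis, and the smallest p that 6 ARFs allow (0.031) leaves little room; with 5 it is 0.0625. Averaged over the clade A proteins, ranks were lower at restricted than at mixed sites under all 22 alternatives, from -14.5 to -5.35. The mean share with several events was also lower under all 21, from -3.74 to -0.79. The number of restricted sites was 1475 when each list kept its upper part by −log10 q (median and above), 303 with as many events per list as ARF18 has, and 1000 with at least 5 ARFs. With 1 ARF left out and 4 still required, it ran from 1019 (ARF34) to 3112 (ARF10), and was 1079 without ARF16, 1130 without ARF4 and 1314 without ARF27. The clade difference in rank turned in direction with 1 clade A protein left out, with values from -5.92 to 3.63 over the 12 lists. With 4 ARFs still required, leaving out 1 ARF makes the rule stricter for its clade only. The clade difference in sites with several events turned to -0.083 at 50 bp and -1.30 with as many events per list as ARF18 has. The clade difference in offset was -3.21 at 50 bp, where it passed, and 1.56 with means. The median distance to a clade B event was 8003 bp with merging within 200 bp, 12868 bp with the stricter −log10 q, 111417 bp with as many events as ARF18 has and 5018 bp with at most 1 clade B ARF; with 1 ARF left out it ran from 7207 to 8944. The share in the middle of chromosomes was 42.9% at 50 bp, 42.6% with as many events as ARF18 has, 42.5% with at least 5 ARFs and 19.0% for a middle of 40% to 60%; it was 43.9% without grouped sites, a setting chosen after seeing the data, and from 42.0% to 47.2% with 1 ARF left out. Fewer events per list lengthen distances by construction; the cause of the other changes was not tested. Libraries of different ARFs could not be paired, because each ARF has 1 library and no replicate numbers match them. The sign-flip tests were paired within each list, setting restricted against mixed sites.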
